A study of Saccharomyces cerevisiae with 14 samples.

Results

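Stable unannotated transcripts (SUTs) are noncoding RNAs of budding yeast, Saccharomyces cerevisiae, which were found outside the annotated genes in wild-type cells. The deposited feature table carries a class label for each row, and the rows labelled as SUTs were taken after rows repeated in full had been dropped. This gave 847 SUTs, SUT001 to SUT847, of 12449 features. The same table held 2420 cryptic unstable transcripts (CUTs) and 1658 Xrn1-sensitive transcripts (XUTs), which serve as the nearest classes for comparison.

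SUTs are made by RNA polymerase II, often from the nucleosome-depleted region at the start or the end of a gene, so many run divergently from a promoter or antisense to a coding gene. They are the longer-lived relatives of CUTs, which are terminated by Nrd1, Nab3 and Sen1 and then degraded in the nucleus by the exosome with its TRAMP cofactor. SUTs more often use the cleavage and polyadenylation machinery of messenger RNAs, and many leave the nucleus and are decapped and degraded by the cytoplasmic exonuclease Xrn1. Some antisense SUTs are known to lower the expression of the gene that they cross.

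Newly made RNA was marked with 4-thiouracil (4tU), which yeast builds into RNA in place of uracil, biotinylated and pulled out on streptavidin beads. The cultures were of strain W303U (MATa, with the markers ade2-1, trp 1-1 and can1-100 and alleles of HIS3 and LEU2), grown at 30 °C in SD medium lacking uracil and leucine, and received 500 µM 4tU for 1.5, 2.5 or 5 min. Timecourses 1, 2 and 3 gave 1 library each at every labelling time, and 1 each of rRNA-depleted total RNA, which stands for the steady state. An unlabelled group taken through the capture without 4tU had 2 libraries, and nothing in the labels sets its genotype or culture apart. For 1 of those 2, source and title disagree: the source names depleted total RNA and the title background, and the title set the group. Their timecourses could not be matched to the columns of the table, so they are called replicates 1 and 2.

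Library totals ran from 3618310 to 65173280 counts, and rRNA took 2.34% to 28.7% of them in the labelled and total RNA libraries against 51.2% and 55.4% in the unlabelled ones. The shallowest library was total RNA of timecourse 1, in which 187 of the 847 SUTs had no count, and 192 had none in total RNA of timecourse 3. In total RNA of timecourse 2, the deepest library, 4 SUTs had no count. In the 9 labelled libraries 6 to 32 SUTs were at 0, so a low value in total RNA rests mostly on timecourse 2.

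The sources used here do not state whether reads were assigned to a strand, so this was checked in the counts. SUT719 is known as the antisense transcript of SUR7, which encodes a plasma membrane protein of the eisosome (XIII, 170402 to 171310 in R64). SUT719 had 2181, 10881 and 9779 counts at 1.5 min and 720, 14901 and 1232 in total RNA. SUR7 had nearly the same count in each of the 14 libraries: the median ratio of SUT719 to SUR7 was 1.02, and the log2 ratio had an SD of 0.0260 over libraries. A second example was SUT745, whose log2 ratio to the opposite-strand gene YTP1 had an SD of 0.000398; it was chosen after its values were seen. The reads of such a pair were therefore not separated by strand, and the level of the SUT alone cannot be read from these counts.

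How far this reached was measured for 696 SUTs that had at least 500 counts and an opposite-strand gene close enough to overlap. The log2 ratio of SUT to gene had an SD below 0.2 over the 14 libraries for 156 of them (22.4%), below 0.1 for 76 and below 0.3 for 201. Against genes of the same strand, which a SUT does not overlap, 0 of 719 SUTs had an SD below 0.2 and 1 had an SD below 0.3. These 156 are called gene-matched SUTs below, 540 are the other checked SUTs, and 151 could not be checked. The limit of 0.2 was set after the values were seen, and a SUT that overlaps a gene in part can stay above it. Besides genes, 241 SUTs tracked an XUT or an antisense unit listed within 5 rows at the same limit, and 3 equalled another feature in all 14 libraries.

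**Figure D1:**
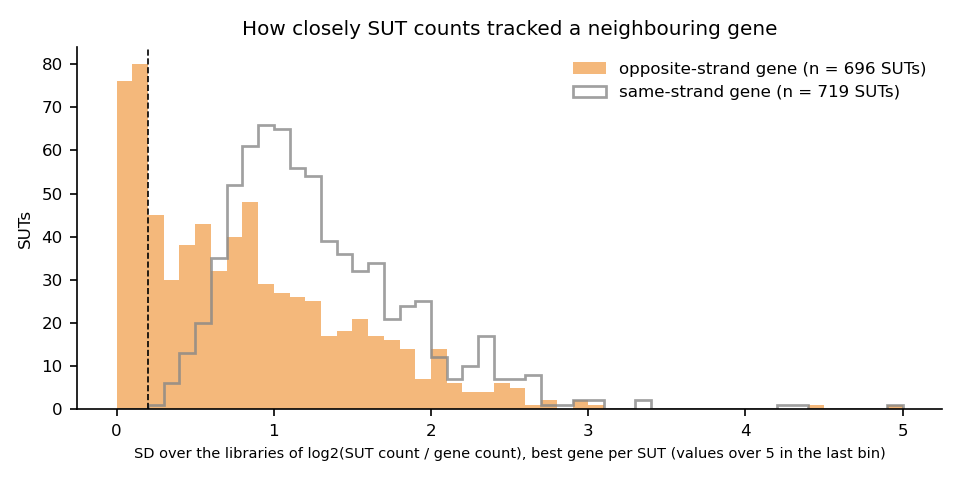
Number of SUTs (vertical axis) by the SD over 14 libraries of the log2 ratio of SUT count to gene count (horizontal axis), for the best opposite-strand gene (filled) and the best same-strand gene (outline). The dashed line marks 0.2: 156 of 696 SUTs lie left of it for opposite-strand genes and 0 of 719 for same-strand genes.

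The length of a feature follows from its count and its RPKM (reads per length and per library size), both deposited. It could be recovered for 844 SUTs, which were 33 to 4913 bases long with a median of 753 and quartiles of 401 and 1283. CUTs had a median length of 227 bases, XUTs of 661 and protein-coding features of 1320. Gene-matched SUTs were longer than the other checked SUTs, at medians of 1317 and 733 bases, and SUTs that could not be checked were shortest at 305. The order of the rows placed 844 SUTs on a chromosome and strand, 429 on the plus and 415 on the minus strand, from 9 on chromosome I to 88 on XVI. Exact coordinates are not in the table, so places are given below by the flanking genes of the same strand.

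SUTs made up more of the labelled RNA than of total RNA. Their share of the counts outside rRNA was 3.82%, 4.16% and 4.37% in timecourses 1, 2 and 3 at 1.5 min, a mean of 4.12% ± 0.278 (SD, n = 3). It was 3.72% ± 0.254 at 2.5 min and 2.86% ± 0.219 at 5 min, against 1.29% ± 0.130 in total RNA (n = 3 each). The share was lowest at 5 min among the labelling times in each timecourse, and the 9 labelled libraries, between 2.61% and 4.37%, did not overlap the 3 of total RNA, between 1.15% and 1.40%. Shares are relative within a library and give no amount of RNA per cell. A rise of SUTs and a fall of other features therefore cannot be told apart. Higher values in labelled RNA were not particular to SUTs. Scaled by library size alone, the median log2 fold change at 1.5 min against total RNA was 1.97 for all features and 2.64 for SUTs.

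The unlabelled libraries did not give 1 background level, with 1.29% in replicate 1 and 3.21% in replicate 2. Without SUT626 and SUT705, which held 23.7% of the SUT counts in replicate 2, those shares were 1.28% and 2.45%. The gene-matched SUTs held 1.72% ± 0.144 of the counts outside rRNA at 1.5 min and 0.550% ± 0.111 in total RNA. The other 691 SUTs held 2.40% ± 0.262 and 0.740% ± 0.161 (n = 3 each), so the order of the groups was alike in both sets. XUTs went from 2.33% ± 0.327 in total RNA to 6.74% ± 0.298 at 1.5 min, and CUTs from 3.10% ± 0.766 to 5.08% ± 0.178 (n = 3 each).

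**Figure D2:**
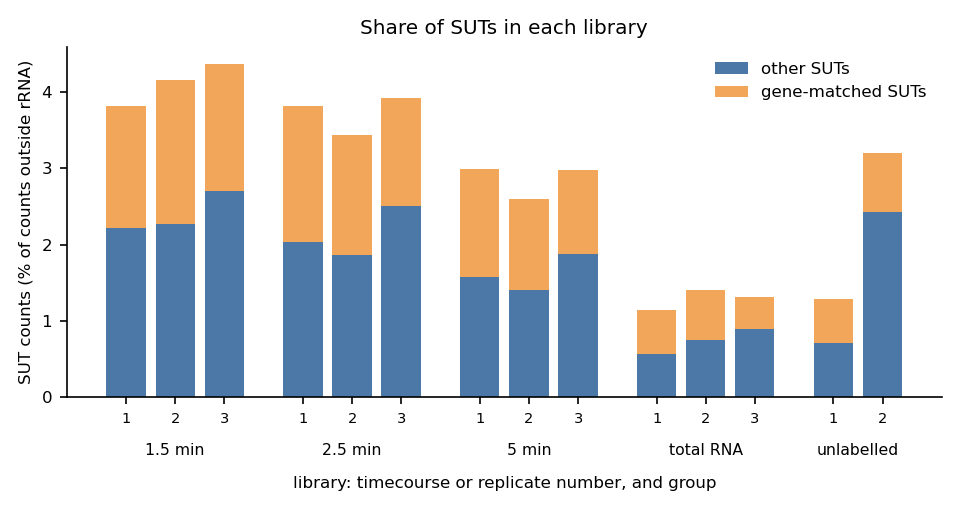
Share of SUT counts in the counts outside rRNA (percent, vertical axis) in each of the 14 libraries, grouped by labelling time, total RNA and unlabelled, with gene-matched SUTs stacked on the other SUTs. The labelled libraries lie between 2.61% and 4.37%, total RNA between 1.15% and 1.40%, and the unlabelled libraries at 1.29% and 3.21%.

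The first question was which SUTs stood higher or lower in newly made RNA than at the steady state. Of 847 SUTs, 819 had enough counts to be tested; the 28 others had a median length of 177 bases and mean RPKM of at most 3.41. At 1.5 min against total RNA, 101 of 819 SUTs were higher and 29 lower in edgeR's quasi-likelihood test (adjusted p under 0.05). Among all 11513 features tested, 6.71% were higher and 11.4% lower. The median log2 fold change was 0.70 for SUTs, 0.78 for CUTs, 0.67 for XUTs and −0.20 for protein-coding genes, against 0.03 for all features. In 373 SUTs the 1.5 min library was above the total RNA of its own timecourse in all 3 timecourses, which is 45.5% of those tested against 30.8% of all features; in 78 SUTs (9.52%) it was below in all 3, against 19.9%.

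Of the gene-matched SUTs 15 of 156 were higher and 15 lower, with a median log2 fold change of −0.02. Of the other checked SUTs, 80 of 540 were higher and 14 lower with a median of 0.83. Of 123 that were tested but could not be checked, 6 were higher and 0 lower, with 25 and 4 at an unadjusted p under 0.05 (edgeR). At that unadjusted limit 1786 of 11513 features were higher and 2211 lower. Without the gene-matched SUTs the counts were 86 higher and 14 lower. The classes were set from these same counts, so their difference was not tested.

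The split into higher and lower calls depended on the scaling and on single libraries. Scaled by library size alone, the median of all features moved from 0.03 to 1.97 and that of SUTs from 0.70 to 2.64, and 569 SUTs were called higher and 1 lower. Relative to all features, the median of SUTs was then still higher. Without timecourse 1 the counts were 5 higher and 4 lower, without timecourse 2 they were 0 and 0, and without timecourse 3 they were 194 and 61. DESeq2 called 219 SUTs higher and 44 lower. Without total RNA of timecourse 2 alone, 188 were higher and 52 lower, and without that of timecourse 3, 232 and 65. The shares of all features called in these fits are not given, so whether SUTs shifted more than other features was not tested. The median log2 fold change of SUTs was 0.81 without timecourse 1 and 0.86 without timecourse 2, beside 0.18 and 0.20 for all features.

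**Figure D3:**
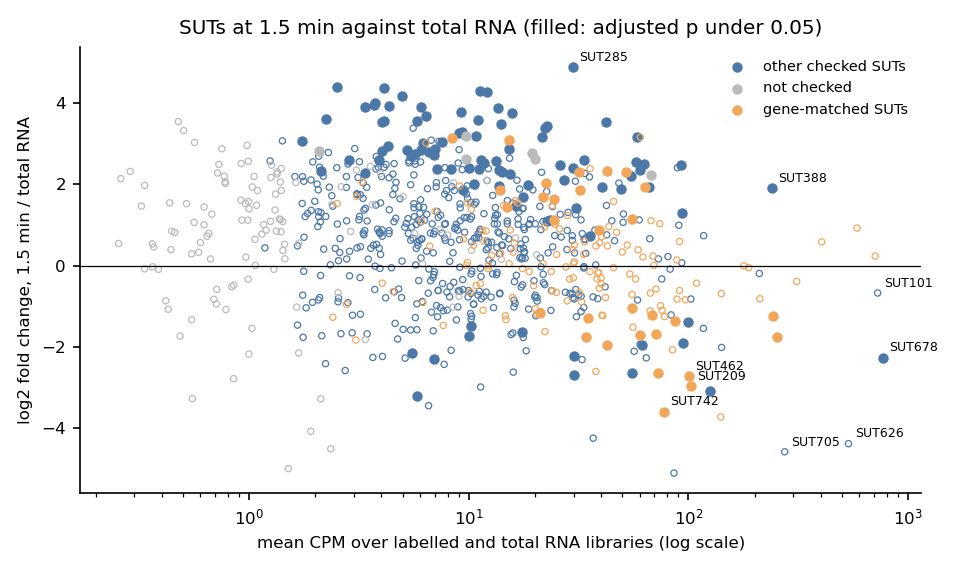
Log2 fold change of each tested SUT at 1.5 min against total RNA (vertical axis) by its mean CPM (count per library size) over the 12 labelled and total RNA libraries (log scale), with filled points for adjusted p under 0.05. Of the called SUTs, 101 lie above 0 and 29 below, and 15 of each are gene-matched (orange).

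The 8 SUTs with the largest calls were SUT285, SUT704, SUT523, SUT403, SUT349, SUT100, SUT517 and SUT286, none of them gene-matched. SUT285 lies on the plus strand of chromosome XIII between YML131W and RSC9, which encodes a subunit of the RSC chromatin remodeller, and is 545 bases long. It had 86.3, 28.4 and 29.8 CPM in timecourses 1, 2 and 3 at 1.5 min and 1.26, 3.06 and 0 in total RNA. The groups did not overlap, timecourse 1 was highest at each labelling time, and the log2 fold change was 4.88 ± 1.09 (SE). The unlabelled libraries held 5.16 and 7.88 CPM, above total RNA and below each of the labelled ones.

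SUT349, on the plus strand of chromosome XV between YOL160W and HXT11, a hexose transporter gene, is 369 bases long. Its levels were 30.8, 20.1 and 15.2 CPM at 1.5 min and 1.26, 1.97 and 0 in total RNA. This is a log2 fold change of 4.26 ± 0.84 (SE), and the 2 unlabelled libraries stood near total RNA at 0.768 and 1.10 CPM.

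SUT523 and SUT100 lie in the same stretch of chromosome V on opposite strands, SUT523 between YER186C and YER188C-A and SUT100 between PUG1 and YER187W. SUT523 had 7.38, 5.47 and 5.41 CPM at 1.5 min and 0, 0.519 and 0 in total RNA. SUT100 had 8.66, 5.88 and 7.89 CPM at 1.5 min and 0, 0.779 and 0 in total RNA. Their log2 fold changes were 4.36 ± 0.94 and 4.16 ± 0.98 (SE); whether the 2 overlap and share reads was not tested. In both, 2 of the 3 total RNA libraries were at 0, so the size of the fold rests on total RNA of timecourse 2.

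SUT704 and SUT517 were lower in level, at no more than 8.07 CPM in any library. SUT704 had 8.06, 3.30 and 3.97 CPM at 1.5 min and 0, 0.338 and 0.146 in total RNA, a log2 fold change of 4.39 ± 0.85 (SE). SUT517, next to CCA1, whose enzyme adds the CCA end to tRNAs, had 5.75, 4.09 and 8.02 CPM against 0, 0.597 and 0.146. Its log2 fold change was 4.00 ± 0.82 (SE). Both were above total RNA in each of the 9 labelled libraries.

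SUT403 and SUT286 close this group. SUT403 spread most at 1.5 min, with 36.2, 3.78 and 17.2 CPM against 1.89, 1.35 and 0 in total RNA, and its log2 fold change of 4.29 ± 1.23 (SE) had an adjusted p of 0.0327 (edgeR). SUT286, which comes after GTR1 (a GTPase gene of nutrient signalling) on the plus strand of chromosome XIII, had 5.83, 4.30 and 6.33 CPM against 0, 0.649 and 0, a log2 fold change of 3.96 ± 0.96 (SE). The other 7 SUTs of the 8 had adjusted p-values (edgeR) from 0.0049 to 0.015. Each of the 8 lost its call without timecourse 1 and without timecourse 2, with the same direction, and SUT403 also without timecourse 3 (adjusted p = 0.0601) and without total RNA of timecourse 1 (adjusted p = 0.0508).

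The 5 SUTs with the lowest calls at 1.5 min were SUT742, SUT808, SUT144, SUT209 and SUT462, and 3 of these were gene-matched. SUT742 tracked TOS6, a gene for a cell wall protein (XIV, 65744 to 66052 in R64), with a median count ratio of 0.773 and an SD of 0.147. SUT742 had 20.5, 22.2 and 18.4 CPM at 1.5 min and 174, 378 and 181 in total RNA. TOS6 had 28.4, 30.1 and 27.5 CPM at 1.5 min and 208, 434 and 193 in total RNA. The log2 fold changes were −3.59 ± 0.38 for SUT742 and −3.28 ± 0.40 for TOS6 (SE), so the low value of SUT742 stands beside an equally low gene.

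SUT209 tracked PRY1, which encodes a secreted sterol-binding protein (X, 289875 to 290774 in R64), at a median ratio of 1.28 and an SD of 0.159. SUT209 had 31.6, 44.3 and 30.3 CPM at 1.5 min and 370, 288 and 174 in total RNA, a log2 fold change of −2.97 ± 0.33 against −3.20 ± 0.36 for PRY1 (SE). SUT462 tracked NPC2, a gene for a sterol-binding protein of the vacuole (IV, 371240 to 371761 in R64), at a median ratio of 0.996 and an SD of 0.0115. SUT462 had 41.4, 46.3 and 33.1 CPM at 1.5 min and 356, 351 and 82.4 in total RNA. Its log2 fold change was −2.71 ± 0.50 and that of NPC2 −2.70 ± 0.49 (SE), which is the same value within either error.

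SUT144 lay just outside the limit, with an SD of 0.240 to SCW4, a cell wall protein gene on the opposite strand. SUT144 had 48.0, 51.4 and 24.3 CPM at 1.5 min and 520, 459 and 70.4 in total RNA, and the log2 fold changes were −3.09 ± 0.69 for SUT144 and −3.24 ± 0.59 for SCW4 (SE). SUT808, between ALG5 and MMT2 on the minus strand of chromosome XVI, tracked no gene, with an SD of 0.938 to the nearest in pattern. It had 1.20, 0.756 and 2.99 CPM at 1.5 min and 3.77, 8.55 and 33.0 in total RNA. Total RNA of timecourse 3 was far above the rest. The log2 fold change was −3.20 ± 0.97 (SE), and without that library it was −1.96 and no longer called (edgeR adjusted p = 0.0937). Each of the 5 lost its call without timecourse 2, SUT808, SUT144 and SUT462 also without timecourse 1, and all but SUT742 when scaled by library size alone.

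**Figure D4:**
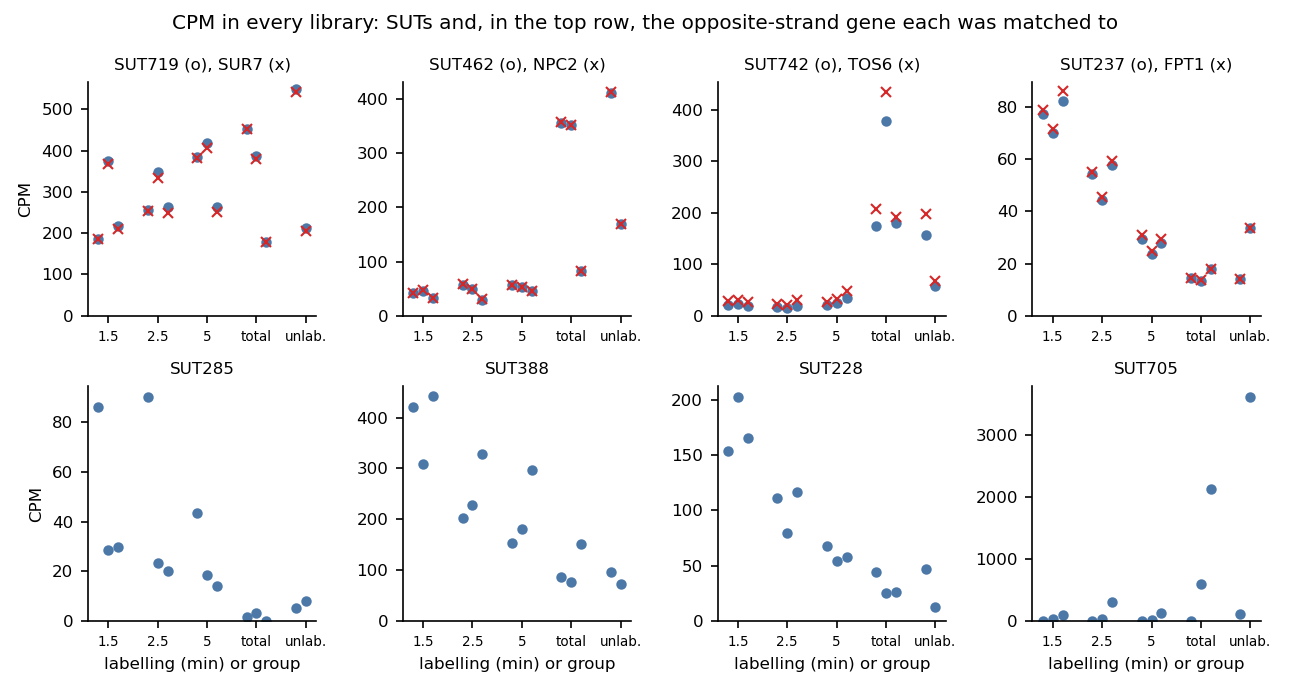
CPM (vertical axes, from 0) in each library for 8 SUTs, by labelling time in min, total RNA (total) and unlabelled (unlab.). In the upper row the crosses give the matched opposite-strand gene and lie on or next to the SUT's points; in the lower row SUT285, SUT388 and SUT228 are highest at 1.5 or 2.5 min, and SUT705 reaches its highest value in an unlabelled library.

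Fewer SUTs were called higher than total RNA at the longer labelling times. At 2.5 min 75 of 819 were higher and 28 lower, where 4.86% of all features were higher and 10.2% lower. At 5 min 40 were higher and 28 lower, where 3.26% of all features were higher and 8.47% lower. The median log2 fold change of SUTs was 0.66 at 2.5 min and 0.43 at 5 min, beside 0.11 and 0.13 for all features. The number of SUTs above total RNA of their own timecourse in all 3 timecourses did not fall from 1.5 to 2.5 min: it was 376 (45.9%) at 2.5 min after 373 at 1.5 min, against 32.4% of all features, and 332 (40.5%) at 5 min, against 32.2%. Below it in all 3 were 83 SUTs (10.1%) at 2.5 min, against 19.6% of all features, and 104 (12.7%) at 5 min, against 18.9%. These comparisons share the total RNA libraries, so their calls are not independent of each other.

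With timecourse as a replicate block, 44 SUTs were lower at 2.5 min and 47 at 5 min. Without timecourse 2 no SUT was called in either comparison, and without timecourse 1 the calls were 0 higher and 3 lower at 2.5 min and 0 and 0 at 5 min. Without timecourse 3 they were 132 and 52 at 2.5 min and 72 and 57 at 5 min. Without total RNA of timecourse 2 alone they were 170 and 50 at 2.5 min and 143 and 49 at 5 min, and without that of timecourse 3, 193 and 64 and then 122 and 73. DESeq2 called 185 higher and 47 lower at 2.5 min and 130 and 55 at 5 min. Scaling by library size alone called 571 higher and 1 lower at 2.5 min and 493 and 3 at 5 min. Without the gene-matched SUTs the counts were 65 higher and 11 lower at 2.5 min and 36 and 11 at 5 min. For the alternative fits the shares of all features called are not given, so whether SUTs shifted more than other features was not tested.

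SUT285 and SUT523 were again among the 3 highest SUTs at both later times, at log2 fold changes of 4.76 ± 1.09 and 4.22 ± 0.94 (SE) at 2.5 min and 3.94 ± 1.06 and 4.02 ± 0.93 at 5 min. At 2.5 min the third was SUT834, between MRD1 and the B-type cyclin gene CLB5 on chromosome XVI, with 13.7, 9.66 and 30.0 CPM against 1.89, 1.58 and 0 in total RNA. SUT834 tracked XUT_16R-343 at an SD of 0.0868, so those counts cannot be told apart. At 5 min the third was SUT580, between RRP4, a gene of the exosome core, and PPE1 on chromosome VIII. SUT580 had 6.24, 7.14 and 15.5 CPM against 0, 1.12 and 0 in total RNA, a log2 fold change of 4.09 ± 0.96 (SE). These calls of SUT285, SUT523, SUT834 and SUT580 were lost without timecourse 1 and without timecourse 2, and that of SUT285 at 5 min also without total RNA of timecourse 1.

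SUT763 tracked ZPS1, a cell surface protein gene that is induced by low zinc (XV, 34658 to 35407 in R64), with a median ratio of 1.11 and an SD of 0.0964. It had 47.2, 92.9 and 17.2 CPM at 1.5 min, 5.94, 14.2 and 16.0 after 2.5 min and 4.54, 15.2 and 10.3 at 5 min, with 107, 264 and 75.5 in total RNA. It was called lower at 2.5 min (−3.63 ± 0.74, SE) and at 5 min (−3.89 ± 0.75), but timecourse 2 at 1.5 min stood above total RNA of timecourse 3. SUT092 tracked HMF1 (V, 270737 to 271126 in R64) at a median ratio of 1.07, and had 33.4, 34.2 and 21.0 CPM at 5 min against 160, 257 and 178 in total RNA. Its log2 fold change at 5 min was −2.75 ± 0.30 (SE), and that of HMF1 was −2.87 ± 0.32. The calls of SUT763 at both times and of SUT092 were lost without timecourse 1 and without timecourse 2. SUT742 and SUT209 were the other lowest calls, SUT742 at −3.83 ± 0.39 (SE) at 2.5 min and −3.19 ± 0.38 at 5 min and SUT209 at −2.90 ± 0.33 at 2.5 min, and these were lost without timecourse 2, that of SUT742 at 5 min also without timecourse 1. Scaled by library size alone, SUT763 and SUT209 were not called at 2.5 min.

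**Figure D5:**
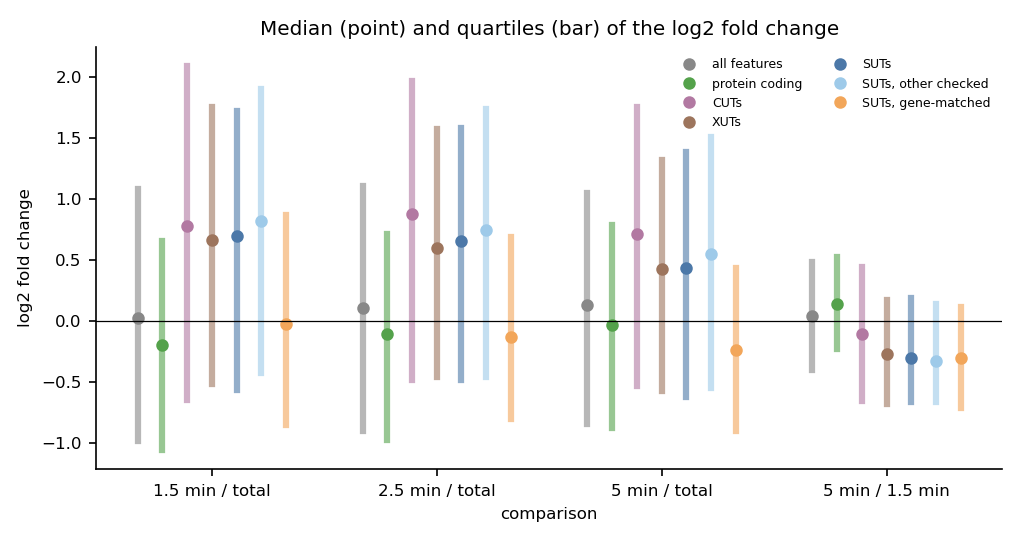
Median (point) and quartiles (bar) of the log2 fold change (vertical axis) in 4 comparisons for all features, coding genes, CUTs, XUTs, SUTs, the other checked SUTs and gene-matched SUTs. The SUT median goes from 0.70 to 0.66 and 0.43 against total RNA and is −0.30 at 5 min against 1.5 min; gene-matched SUTs lie near or below 0 throughout.

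Among the labelling times themselves, the levels of many SUTs were lower the longer the labelling, without a call for any single SUT. In 358 of 819 SUTs (43.7%) the mean CPM was lower at 2.5 than at 1.5 min and lower again at 5 min, against 27.5% of all features, and in 137 (16.7%) it was higher each time, against 32.5%. The median log2 fold change at 5 min against 1.5 min was −0.30 for SUTs, −0.10 for CUTs, −0.27 for XUTs and 0.14 for protein-coding genes. In 338 SUTs the 5 min library was below the 1.5 min library in all 3 timecourses, 41.3% of those tested where 26.1% of all features did so.

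No SUT passed the threshold at 5 min against 1.5 min in edgeR, with or without timecourse as a block, and 0% of all features did in either direction. At an unadjusted p under 0.05 (edgeR), 11 of 819 SUTs were higher and 47 lower, where 449 of 11513 features were higher and 305 lower. DESeq2 called 1 SUT higher and 13 lower, and the share of all features that it called is not given. The 3 lower SUTs with the smallest p were SUT237, SUT228 and SUT779. SUT237 had 77.2, 70.0 and 82.3 CPM at 1.5 min, 54.3, 44.3 and 57.7 after 2.5 min and 29.5, 23.6 and 27.7 at 5 min. The 3 groups did not overlap, and the log2 fold change of −1.51 ± 0.25 (SE) had an edgeR adjusted p of 0.205. SUT237 was gene-matched, to FPT1 (XI, 461635 to 462696 in R64) at an SD of 0.0269.

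SUT228, between the mitochondrial ribosomal protein gene MRPL38 and the cell wall gene PIR3 on chromosome XI, was not gene-matched. Its levels were 154, 203 and 166 CPM at 1.5 min, 111, 79.5 and 117 after 2.5 min and 67.8, 54.4 and 57.8 at 5 min, and 44.0, 25.1 and 25.9 in total RNA. The labelled groups did not overlap, and the log2 fold change at 5 min was −1.54 ± 0.30 (SE; edgeR adjusted p = 0.284). SUT779, between OST2 and TRS33 on chromosome XV, went from 159, 106 and 90.3 CPM to 43.0, 28.0 and 35.4, but stood at 106 in unlabelled replicate 2. It tracked XUT_15R-249 at an SD of 0.0284, so those counts cannot be told apart.

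In the other direction SUT200, SUT646 and SUT775 had the smallest p, none of them called (edgeR adjusted p = 0.444, 0.523 and 0.574). SUT200 had 32.9, 40.9 and 46.6 CPM at 1.5 min, 63.3, 67.8 and 57.1 after 2.5 min and 84.0, 74.8 and 74.5 at 5 min. It was gene-matched to ELO1, a fatty acid elongase gene (X, 67850 to 68782 in R64). SUT646 had 22.2, 24.7 and 19.5 CPM at 1.5 min and 46.4, 47.2 and 40.2 at 5 min, counts that cannot be told apart from those of XUT_10R-249 (SD of 0.134). SUT775 had 3.43, 5.57 and 5.39 against 10.4 to 19.0. SUT775 lay at an SD of 0.201 to its opposite-strand gene, at the edge of the limit.

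Against the unlabelled capture, which measures what binds the beads without 4tU, 19 of 828 SUTs were higher and 14 lower at 1.5 min, where 1.44% of all 11688 features were higher and 3.35% lower. The median log2 fold change was 0.35 for SUTs and −0.09 for all features. Without timecourse 1 or 2 no SUT was called in either direction, and without timecourse 3 there were 62 higher and 27 lower. DESeq2 called 108 higher and 30 lower, and scaling by library size alone 446 and 0. Without the gene-matched SUTs 14 were higher and 7 lower. For the fits with a timecourse left out, with DESeq2 and with library size alone, the shares of all features called are not given. In the fit reported, most SUTs were not called against the background of the capture, and the same was true of most features. This depended on the scaling. With library size alone the median log2 fold change was 2.66 for SUTs and 2.26 for all features. The unlabelled group had 2 libraries that differ from each other, and their part in this was not tested.

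SUT284, on the plus strand of chromosome XII between RPL6B and FPR4, had 6.09, 2.72 and 2.70 CPM at 1.5 min and no count in either unlabelled library. Taking 3 counts over that group as the limit, which is 0.194 CPM, the mean of 3.83 CPM was at least 19.8-fold higher. SUT349 was higher here as well, at a log2 fold change of 4.56 ± 1.01 (SE), and so was SUT296, between SPT5, an elongation factor gene, and YAP1. SUT296 had 29.5, 24.2 and 24.4 CPM at 1.5 min against 1.32 and 1.73, a log2 fold change of 4.09 ± 0.88 (SE).

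The lowest calls against the unlabelled group were SUT614, SUT843 and SUT462. SUT614 lies on the minus strand of chromosome IX between the allantoin degradation gene DAL1 and DCG1. SUT614 had 9.09, 9.39 and 8.36 CPM at 1.5 min and 19.1 and 360 in the unlabelled libraries. SUT843 had 3.35, 6.09 and 7.26 CPM against 15.2 and 103. In both, unlabelled replicate 2 was far above replicate 1, and total RNA of timecourse 3 was the highest of its group, at 94.9 and 25.3 CPM. The opposite-strand gene DAL4, at an SD of 0.392 to SUT614, had 29.6 and 368 CPM unlabelled and 95.0 in total RNA of timecourse 3. DAL4 was called lower as well (−3.60 ± 0.87, SE), and so was GPH1 opposite SUT843 (−2.28 ± 0.47, SD of 0.562). Neither SUT was gene-matched, and whether they share reads with these genes was not tested. SUT462, gene-matched to NPC2, had 411 and 170 CPM unlabelled and was lower at 1.5 min by a log2 fold change of −2.85 ± 0.58 (SE). Scaled by library size alone, none of the 3 SUTs was called (edgeR adjusted p = 0.0688, 0.161 and 0.67).

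At 5 min against unlabelled, 0 SUTs were higher and 1 lower, where 0.0599% of all features were higher and 0.282% lower. At an unadjusted p under 0.05 (edgeR) 75 of 828 SUTs were higher and 86 lower, where 921 of 11688 features were higher and 1475 lower. DESeq2 called 46 SUTs higher and 44 lower, and the share of all features that it called is not given. The 1 call was SUT092, matched to HMF1, with 194 and 115 CPM unlabelled and a log2 fold change of −2.39 ± 0.38 (SE; edgeR adjusted p = 0.0316). It was lost without each of the 3 timecourses, at edgeR adjusted p-values from 0.0628 to 0.471, and when scaled by library size alone (adjusted p = 0.787).

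Levels between SUTs were compared per length, as the deposited RPKM. The median over SUTs of the mean RPKM in the 12 labelled and total RNA libraries was 14.1, beside 15.9 for protein-coding features, 9.76 for CUTs and 13.7 for XUTs, and the SUT quartiles were 6.99 and 28.6. The 10 highest SUTs held 19.3% to 27.2% of the SUT counts in the labelled libraries and 34.1% to 40.8% in total RNA. The 6 SUTs with the highest mean RPKM were SUT101, SUT678, SUT388, SUT626, SUT163 and SUT705, and they differed in where they were high.

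SUT101 (mean RPKM 1115) lies on chromosome VI next to TUB2, the beta-tubulin gene, with the actin gene ACT1 on the opposite strand; the SD of its log2 ratio to ACT1 was 0.658. It had 1399, 1798 and 1479 RPKM at 1.5 min and 657, 1450 and 337 in total RNA, and timecourse 2 of total RNA lay within the labelled range. On the TMM-scaled CPM, which also corrects for the makeup of a library, timecourses 1 and 2 stood the other way, with 873, 574 and 664 CPM at 1.5 min against 1214, 1504 and 643 in total RNA, and SUT101 was not called. SUT388 (mean RPKM 637), between TFB6 and GDS1 on chromosome XV, stood apart in labelled RNA. Its levels were 917, 1314 and 1341 RPKM at 1.5 min, 340, 537 and 688 at 5 min and 63.3, 99.6 and 108 in total RNA, without overlap. On the CPM scale the log2 fold change of SUT388 at 1.5 min against total RNA was 1.90 ± 0.39 (SE; edgeR adjusted p = 0.00687), and the unlabelled libraries held 96.3 and 71.6 CPM. That call was lost without timecourse 1 (adjusted p = 0.0942) and without timecourse 2 (adjusted p = 0.108).

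SUT163 (mean RPKM 467) was matched to HXT1, the low-affinity glucose transporter gene (VIII, 290913 to 292625 in R64), at a median ratio of 1.00 and an SD of 0.111. It had 461, 966 and 490 RPKM at 1.5 min and 94.9, 171 and 40.0 in total RNA, but the log2 fold change on scaled counts was 0.92 ± 0.42 (SE; edgeR adjusted p = 0.146) without a block and 1.01 with timecourse as a block (adjusted p = 0.00844). SUT678 (mean RPKM 736), between NFU1 and IXR1 on chromosome XI, ran the other way. It had 496, 273 and 290 CPM at 1.5 min and 2358, 2384 and 324 in total RNA, a log2 fold change of −2.26 ± 0.63 (SE; edgeR adjusted p = 0.0278). Timecourse 3 overlapped the labelled libraries, and XUT_11R-166 carried the same counts at an SD of 0.00104. Its call was lost without timecourse 1 or 2, without total RNA of timecourse 1 or 2 alone, and when scaled by library size alone (−0.47, edgeR adjusted p = 0.555).

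SUT705 and SUT626 depended on the timecourse more than on the group. SUT705 (mean RPKM 463), between TMA10 and JIP3 on chromosome XII, had 0, 121 and 402 RPKM at 1.5 min, 0, 1097 and 2145 in total RNA, with 103 and 3603 CPM in the unlabelled libraries. SUT626 (mean RPKM 484), between NCA3 and GZF3 on chromosome X, had 1.85, 69.9 and 494 RPKM at 1.5 min, 0.705, 157 and 2587 in total RNA, with 226 and 3693 CPM unlabelled. Both were near 0 in the 4 libraries of timecourse 1, and SUT626 tracked XUT_10R-78 at an SD of 0.188. Their log2 fold changes at 1.5 min against total RNA were −4.58 ± 2.80 and −4.38 ± 2.76 (SE), with edgeR adjusted p-values of 0.26 and 0.274 without a block, and −4.64 and −3.18 with timecourse as a block (adjusted p = 0.000711 and 0.0026). The tRNA share of the counts outside rRNA was low in the same libraries, from 0.0269% to 0.623% in timecourse 1 against 0.893% to 7.91% in timecourses 2 and 3, and its part in the result was not tested.

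A few SUTs have been studied singly, and 6 were listed for that reason whatever their values. SUT719, the antisense of SUR7, had 187, 374 and 218 CPM at 1.5 min and 453, 387 and 179 in total RNA, and its log2 fold change of −0.39 ± 0.40 (SE) stood beside −0.40 ± 0.40 for SUR7 and was not called. SUT457, a SUT with a reported role at telomeres, lies between SYP1 and the ribosomal protein gene RPS14A on chromosome III and is 345 bases long. It had 15.0, 7.98 and 12.7 CPM at 1.5 min and 6.29, 2.60 and 23.3 in total RNA. The groups overlapped, and its log2 fold change was 0.13 ± 0.71 (SE).

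SUT125, SUT126, SUT035 and SUT532, which have been reported to act in trans, were low. SUT126 had 5.06, 6.88 and 8.76 CPM at 1.5 min and 0, 3.43 and 0 in total RNA, a log2 fold change of 2.26 ± 1.04 (SE; edgeR adjusted p = 0.144). SUT125 stayed at or under 1.49 CPM in each labelled library and reached 13.2 in total RNA of timecourse 3, with 0 and 0.883 in timecourses 1 and 2 (edgeR adjusted p = 0.0533). DESeq2 called SUT125 lower (adjusted p = 0.00309) and SUT126 higher (adjusted p = 0.0283), and edgeR called SUT126 higher without total RNA of timecourse 2 (adjusted p = 0.00138) and SUT125 lower without that of timecourse 1 or 2 (adjusted p = 0.034 and 0.0296). SUT532 was between 0.427 and 1.87 CPM in labelled RNA and at 8.67 in unlabelled replicate 2. SUT035, 177 bases long, did not pass the filter on counts.

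Shorter SUTs had the larger fold changes. In 4 bins of equal size by length, the median log2 fold change at 1.5 min against total RNA was 1.10 in the shortest (33 to 425 bases), 0.90 and 0.64 in the next bins and 0.20 in the longest (1313 to 4913 bases). Over 819 SUTs the Spearman correlation of length and log2 fold change was −0.20, given as a description, since the points share the same libraries. Gene-matched SUTs made up 1 of 205 in the shortest bin and 80 of 205 in the longest, and longer SUTs also hold more counts. Higher calls were spread more evenly, at 23, 27, 29 and 22 from the shortest to the longest bin. Lower calls grew in number with length, at 3, 7, 8 and 11. Over all features, not split by length, 6.71% were higher and 11.4% lower.

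The transcripts of machinery that ends and degrades noncoding RNAs, CUTs as well as SUTs, were read in the same fits. At 1.5 min against total RNA, where 6.71% of all features were higher and 11.4% lower, 3 of 11 termination genes were higher and 1 lower: RNA14 (1.46 ± 0.32, log2 fold change ± SE) and YSH1 (1.69 ± 0.44) of the cleavage and polyadenylation machinery, the phosphatase gene SSU72 (2.42 ± 0.75), and NAB3 (−1.08 ± 0.33), which encodes a termination factor that binds noncoding RNA. At 2.5 min RNA14 and YSH1 were still higher and NAB3 lower, beside 4.86% of all features higher and 10.2% lower. SSU72 was then not called (edgeR adjusted p = 0.0522). At 5 min only RNA14 of this list was called, beside 3.26% of all features higher and 8.47% lower. Of 18 genes of the nuclear exosome and TRAMP none was called at 1.5 min in edgeR, and RRP40, an exosome core gene, was lower at 2.5 min (−1.09 ± 0.27) and at 5 min (−1.13 ± 0.27).

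Beside the same shares of 6.71% and 11.4% over all features, 2 of 16 genes of cytoplasmic decay were higher at 1.5 min, the decapping gene DCP2 (1.13 ± 0.28) and NMD2 (1.17 ± 0.34) of nonsense-mediated decay, and 2 lower, the deadenylase gene CCR4 (−1.62 ± 0.35) and the helicase gene DHH1 (−1.02 ± 0.28). Of 12 genes of chromatin factors that restrain noncoding transcription 0 were higher and 3 lower: SIN3 (−1.21 ± 0.26), SPT6 (−1.65 ± 0.41) and SPT16 (−1.76 ± 0.53). The medians of the 4 lists were 0.56, 0.06, −0.24 and −0.17 in the order given, beside 0.03 for all features. Of the decay genes only DCP2 and CCR4 were also called at 2.5 min and at 5 min against total RNA. Of the chromatin genes only SIN3 was called at 2.5 min and none at 5 min. Calls of the listed genes in fits with libraries left out are not given. At 5 min against 1.5 min no gene of the 4 lists was called by edgeR.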

How the data were processed

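The authors deposited a read count per feature for each of 14 libraries, not normalised, with an RPKM value beside it, per the file headers; the 2 columns of RPKM for the unlabelled libraries were not used. The submitters' processing notes name STAR 2.4.2a and build R64; the sources used here give no counting tool or strand setting. Of 12549 rows, 100 full repeats were dropped. The SUT rows, lists and comparisons were chosen with earlier results of these data known.

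Counts were tested with edgeR 4.0.16 (R 4.3.3): filterByExpr with a minimum count of 10, TMM factors, quasi-likelihood F test, Benjamini-Hochberg over all features, threshold 0.05. Comparisons with total RNA and among times used those 4 groups, and comparisons with the unlabelled group all 5. CPM is the deposited count over the TMM-scaled library size. The procedure was tested on simulated data in which libraries were drawn independently, with no timecourse effect. That test therefore does not cover the shared deviations of same-numbered libraries given below. DESeq2 1.42.0, other scalings, no filter, left-out libraries and a timecourse block were alternatives. Whether the 3 libraries of a group came from separate cultures is not stated beyond the timecourse number, so p-values measure the spread between timecourses. Same-numbered libraries deviated together (r from 0.253 to 0.877 over 18 pairs, and −0.664 to 0.100 over 36 pairs of different numbers). Deviations were taken from group means and cancel within a group, so the range for different numbers is no independent contrast. The labels' timecourse number is the source of the pairing.

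Feature lengths are the count over RPKM, scaled on stable RNA genes of known length. Chromosome, strand and flanking genes come from the order of the rows, which ran through 32 blocks of 1 chromosome and strand; 97 of 97 stable RNA genes fell inside the bracket their neighbours gave. Gene symbols and R64 coordinates are from RefSeq. The log2 ratio of SUT to gene counts used a pseudocount of 0.5 and at least 500 counts for each. Named SUTs were, among called ones, the 8 highest and 5 lowest at 1.5 min against total RNA and the 3 highest and 3 lowest elsewhere (where none was called, the 3 of each direction with the smallest p), the 6 of highest mean RPKM, and 6 studied before.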

Additional observations from a re-analysis of the deposited data

How the results depend on the processing

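Counts of called SUTs are given as higher and lower, without the shares of all features called in the same settings. With DESeq2 they were 219 and 44, 185 and 47, and 130 and 55 at 1.5, 2.5 and 5 min against total RNA, 1 and 13 at 5 against 1.5 min, and 108 and 30 at 1.5 min and 46 and 44 at 5 min against unlabelled. Scaled by library size alone they were 569 and 1, 571 and 1, and 493 and 3 against total RNA, and 446 and 0 and 349 and 0 against unlabelled; the median of all features then stood between 1.86 and 2.26 in these 5 comparisons. With timecourse as a replicate block, 44 SUTs were lower at 2.5 min and 47 at 5 min against total RNA; it changed no other count by over 1.5 times, and among named SUTs it added calls for SUT705, SUT626 and SUT163. Leaving out a timecourse or a single total RNA library gave 0 to 232 higher and 0 to 65 lower at 1.5 min, 0 to 193 and 0 to 64 after 2.5 min, and 0 to 143 and 0 to 73 after 5 min against total RNA. Leaving out a timecourse gave 0 to 62 higher and 0 to 27 lower at 1.5 min and 0 to 0 lower at 5 min against unlabelled. Fits without a timecourse hold fewer libraries. Choices made after seeing the data: without gene-matched SUTs, 14, 11 and 11 were lower against total RNA at 1.5, 2.5 and 5 min and 7 and 0 against unlabelled at 1.5 and 5 min; at a limit of 0.3 these were 11, 9 and 7, and 6 and 0. The counts of higher SUTs stayed within 1.5 times under those limits, and at a limit of 0.1 both did. Size factors by the DESeq2 method within edgeR and no filter on low counts moved no count by over 1.5 times. The SUT share of all counts, rRNA included, was 3.53% at 1.5 min, 3.24% at 2.5 min, 2.51% at 5 min and 1.10% in total RNA; without gene-matched SUTs the share outside rRNA was 2.40%, 2.14%, 1.62% and 0.740%. Of single SUTs, the sign turned for SUT101 (1.18) and SUT719 (1.56) with library size alone, for SUT719 without timecourse 1 (0.15), and for SUT457 without timecourse 1 (−0.11) or 2 (−0.13) and without total RNA of timecourse 1 (−0.11) or 2 (−0.36); without that of timecourse 3 they were −0.69 (SUT719) and 1.65 (SUT457), and none of these 3 was called in the fit reported. The cause of these shifts was not tested. The median SUT count was 8 and 16 in total RNA of timecourses 1 and 3, with 3148261 and 15230294 counts outside rRNA, and 316 at 2.5 min of timecourse 3, with 14765984. The limit of 3 counts used for SUT284 covers counting error only, since PCR copies were not told apart.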

Other observations

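SUT298, which was chosen after its values were seen, is 73 bases long and lies next to SNR78, a small nucleolar RNA gene, on the plus strand of chromosome XIII. It had 0, 433 and 1472 counts at 1.5 min in timecourses 1, 2 and 3, 0, 910 and 1362 after 2.5 min, 0, 767 and 824 at 5 min and 0, 239 and 0 in total RNA. The unlabelled libraries held 6 and 102 counts. It was at 0 in each library of timecourse 1, as SUT705 and SUT626 were at or near 0 there, while timecourses 2 and 3 held at least 433 counts in each labelled library.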
